A study of Rattus norvegicus with 288 samples.

Results

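Sorafenib given by mouth after an oxaliplatin infusion was followed at 6 h by lower expression of 7 of 14 tested resident macrophage markers in the rat heart, while the other 7 did not pass the test. Of all tested genes 1.58% fell. The monocyte-attracting chemokine genes Ccl2 and Ccl7 were 3.63-fold and 2.55-fold lower than after oxaliplatin and the oral vehicle alone, the chemokine receptor gene Ccr1 2.35-fold and the endotoxin co-receptor gene Cd14 2.15-fold (n = 4 rats against 4). Ccl7 and Ccr1 lay below 6 log2, the level asked for by the filter on low values, in all 4 sorafenib rats, so their folds rest on low signals. The falls of Ccl2 and Ccl7 passed in 3 and 4 of the 8 fits that left out 1 rat, and the Ccl2 groups overlapped. The VEGF receptor genes Kdr and Flt1 also fell, by 0.52 ± 0.13 and 0.61 ± 0.14 on the log2 scale (± SE). Among the genes that rose most were Mylip, which tags the LDL receptor for degradation (1.96-fold), and Abcg1, a cholesterol exporter (1.79-fold).

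The comparison holds 8 of the 96 heart arrays and of the 288 arrays of the series, picked by their titles: heart, 6 h, oxaliplatin first in both groups. This comparison and the gene lists were chosen with earlier results of these data known. Male Sprague Dawley rats of 8 weeks received 15 mg/kg oxaliplatin, a platinum drug that binds DNA, by intravenous infusion over 30 min. In the treated group 4 rats then took 25 mg/kg sorafenib by mouth, and in the control group 4 rats took its vehicle, a mix of Pluronic F68, propylene glycol (PG) and PEG400, written F68/PG/PEG400 in the labels and called the vehicle here. Every array is 1 rat, the piece of heart was the apex with parts of both ventricles, and the numbers that name rats carry no order. The rats given D5W, the dextrose carrier of oxaliplatin, and then sorafenib at 6 h are not compared here, because the beta-actin control of their arrays stood apart (median 3′ minus 5′ value 0.684). The rats given D5W and then water at 24 h stood apart as well (0.752), and the other 22 heart groups ran from 0.24 to 0.469. The effect described is therefore that of sorafenib in rats that had all received oxaliplatin. The 4 rats given D5W and then the vehicle are set beside them as values.

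Sorafenib inhibits RAF kinases, which start the ERK cascade, and receptor tyrosine kinases such as the VEGF and PDGF receptors. In the heart, VEGF receptors are found mainly on the endothelium of the dense capillary bed, PDGF receptors on pericytes and fibroblasts, and the receptor for macrophage growth factor, Csf1r, on resident macrophages. ERK activity drives immediate early genes and a set of feedback inhibitors such as Dusp6 and Spry4. Resident macrophages clear dying cells, and monocytes enter the heart along gradients of Ccl2 and Ccl7.

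The 8 arrays were alike in tissue markers and did not differ detectably in 2 controls of RNA quality, though 4 rats against 4 can miss a small difference. The median of 8 heart markers lay between 14.48 and 14.52 log2 on all of them, and the median of the kidney and of the liver markers between 5.28 and 6.02. The beta-actin 3′ minus 5′ value, which is larger when transcripts are degraded, ran from 0.216 to 0.337 in the sorafenib rats and from 0.217 to 0.316 in the vehicle rats (exact permutation test, two-sided p = 0.8). One hybridization control, Cre, was lower on each of the 4 sorafenib arrays (13.21 to 13.41) than on each vehicle array (13.41 to 13.55), with the smallest p that 4 against 4 allows (exact p = 0.0286). Its part in the results was not tested. Both groups were dosed on the same day. The date of the scan was not used here.

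In all, 857 of 11317 tested genes changed at an adjusted p under 0.05 (7.57%), 678 upwards (5.99%) and 179 downwards (1.58%). Most changes were small. Of the genes that passed, 32 rose and 35 fell by 0.5 log2 or more, and 1 rose and 5 fell at least 2-fold. The median difference over all tested genes was 0.04 log2, although the median over all probe sets of an array did not differ detectably (mean 6.66 with sorafenib, 6.67 with the vehicle, exact p = 0.371). The split into rises and falls changed with the scaling: with each array centred on its median 216 genes rose and 362 fell, and after another quantile normalization within the heart 361 rose and 232 fell. The count also rested on single rats. It was 135 without vehicle rat 1, 368 without sorafenib rat 4 and 557 without sorafenib rat 1. The spread was taken from all 24 heart groups, and with these 8 arrays alone 22 genes passed. Of the 24 groups, the vehicle group had the largest mean distance between its arrays (42.5, against 37.7 in the sorafenib group). The shared spread may therefore be too small for it. The text therefore dwells on single genes with their values in every rat. Of the 12 largest falls 9 passed whichever rat was left out, and of the 12 largest rises 3 did (Mylip, Pxdn and Rnf144a).

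The 12 genes that fell furthest were, in order, Ccl2, Ccl7, Ccr1, Ptpro, Cd14, Mrc1, RT1-DMa, Rbp7, Asgr2, Fxyd2, C1qb and Aif1. Several are genes of myeloid cells. Ccl2 stood at 9.49, 7.71, 7.05 and 9.99 log2 in the 4 vehicle rats and at 6.24, 6.69, 6.68 and 7.20 in the 4 sorafenib rats. Vehicle rats 1 and 4 were the high ones, and 1 vehicle rat lay below the highest sorafenib rat. The difference was -1.86 ± 0.56 (adjusted p = 0.0299) and did not pass in 5 of the 8 fits that left out 1 rat. Ccl7 followed the same rats: 7.31, 5.98, 5.85 and 8.05 with the vehicle, 5.15, 5.14, 5.66 and 5.83 with sorafenib, without overlap (-1.35 ± 0.40, adjusted p = 0.0271). All its sorafenib values and those of vehicle rats 2 and 3 were below the filter's level of 6. Ccl7 passed in 4 of the 8 fits that left out 1 rat, with -0.94 without vehicle rat 4.

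The fall of Ccr1, a receptor by which monocytes and neutrophils follow chemokines, passed in all 8 of these fits. It measured 6.65, 6.65, 6.40 and 7.61 in the vehicle rats against 5.67, 5.43, 5.76 and 5.53 in the sorafenib rats, a difference of -1.23 ± 0.23 (adjusted p = 0.000805), between -1.38 and -0.97 when any 1 rat was left out. Cd14, which hands endotoxin to its receptor, stood at 8.64, 8.31, 8.26 and 9.07 against 7.34, 7.40, 7.50 and 7.64 (-1.10 ± 0.20, adjusted p = 0.000303). The receptor phosphatase gene Ptpro read 6.98, 7.09, 6.68 and 7.63 against 5.79, 6.06, 5.97 and 6.05 (-1.13 ± 0.17, adjusted p = 1.44e-05). For all 3 genes the lowest vehicle rat lay clearly above the highest sorafenib rat. The 4 rats given D5W and the vehicle ranged from 6.28 to 7.14 for Ccr1, from 8.06 to 8.51 for Cd14 and from 6.56 to 7.18 for Ptpro, again above every sorafenib rat. Over all tested genes the groups did not overlap, with sorafenib lower, in 247 (2.18%), and with sorafenib higher in 826 (7.3%). Among the 12 largest falls 11 did not overlap, and among the 12 largest rises 8, which the choice by size partly sets.

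Of 14 tested markers of resident macrophages 7 fell, 0 rose and 7 did not pass, against 1.58% of all genes that fell. The list was chosen with earlier results of these data known. The median of the list was -0.48 log2, against 0.04 over all genes, and all 14 differences were below 0. The falls were those of Mrc1, the mannose receptor, Stab1 and Lyve1, receptors that take up waste from the tissue fluid, the complement chains C1qb and C1qc, the actin-binding protein gene Aif1 and the fractalkine receptor gene Cx3cr1. Fewer macrophages and less of these transcripts per macrophage cannot be told apart in a piece of heart. The mean over the 14 genes ran from 8.19 to 8.84 in the vehicle rats, with vehicle rat 4 the highest, and from 7.76 to 8.14 in the sorafenib rats.

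Mrc1 stood at 8.45, 8.39, 8.78 and 9.57 log2 with the vehicle and at 7.90, 7.65, 7.75 and 8.10 with sorafenib. The groups did not overlap, and the difference was -0.95 ± 0.20 (adjusted p = 0.00265), and -0.69 without vehicle rat 4. C1qb read 9.70, 9.78, 9.70 and 10.36 against 8.86, 9.29, 9.12 and 9.35 (-0.73 ± 0.17, adjusted p = 0.00441). Vehicle rat 4 was the outlying high rat here too. Stab1 read 7.51, 7.60, 7.89 and 8.12 against 7.37, 7.29, 7.31 and 7.03 (-0.53 ± 0.12, adjusted p = 0.00417), and Aif1 from 6.80 to 7.52 against 6.00 to 6.77 (-0.71 ± 0.19, adjusted p = 0.0159).

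The list did not move as one. Csf1r, the growth factor receptor that macrophages depend on and itself a kinase that sorafenib inhibits, differed by -0.12 ± 0.13 (adjusted p = 0.63), the pan-macrophage gene Adgre1 by -0.06 ± 0.19 and the haemoglobin scavenger receptor gene Cd163 by -0.16 ± 0.24. Adgre1 lay below 6 log2, the level the filter asks for, in all 8 rats and passed it through other heart groups, with a mean of 5.13 with the vehicle, 5.07 with sorafenib and 5.92 in the rats given D5W and the vehicle. Mrc1 (9.29) and Stab1 (8.18) were also higher in those rats, while C1qb (9.91) and Aif1 (7.18) were near the level of the vehicle rats given oxaliplatin. These vehicle rats serve in both comparisons, so the values are set side by side only, and 4 genes passed between them. Leaving out vehicle rat 1, vehicle rat 4 or sorafenib rat 1 left 4 macrophage markers past the threshold, and with the spread taken from these 8 arrays alone 0 passed.

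**Figure D1:**
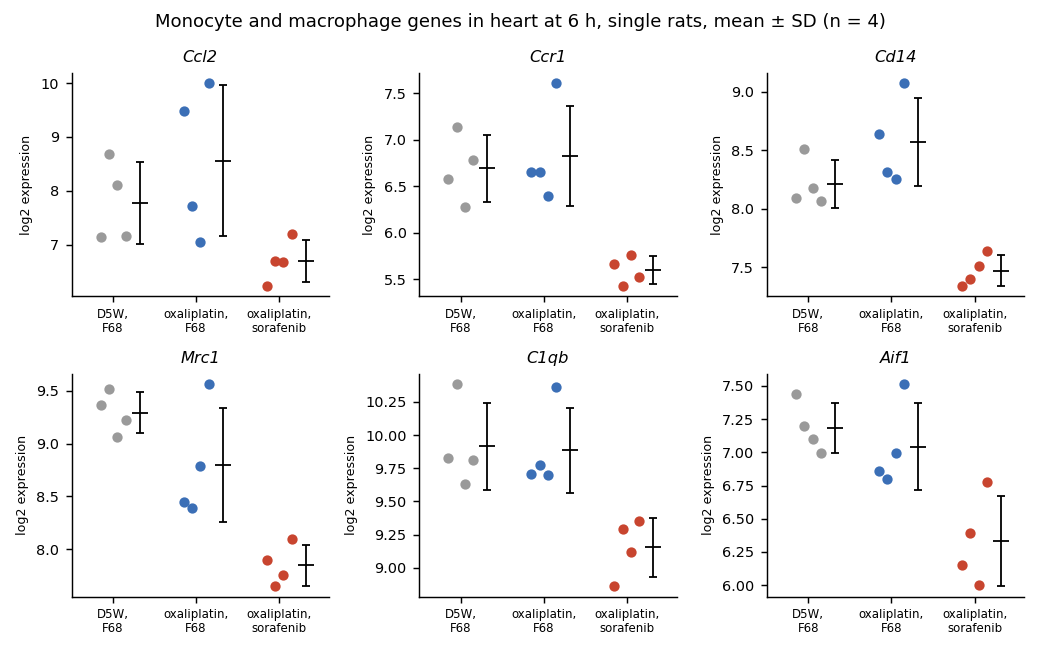
Log2 expression (y axis) of Ccl2, Ccr1, Cd14, Mrc1, C1qb and Aif1 in heart at 6 h for single rats given D5W and vehicle (grey), oxaliplatin and vehicle (blue) or oxaliplatin and sorafenib (red), with the mean and SD of 4 rats beside them. The sorafenib rats lie below every oxaliplatin and vehicle rat for all genes shown but Ccl2, where 1 vehicle rat stood at 7.05 and the highest sorafenib rat at 7.20.

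Other blood and immune cells were less clear. All 6 neutrophil markers differed downwards, with a median of -0.52, but 0 passed: Itgam, an adhesion receptor of neutrophils and monocytes, by -0.30 ± 0.12 (adjusted p = 0.127) and S100a9, a calcium-binding protein that fills neutrophils, by -0.88 ± 0.59 (adjusted p = 0.371). The mean over these 6 genes ran from 7.30 to 7.80 in the vehicle rats and from 6.83 to 7.27 in the sorafenib rats. S100a9 alone ranged from 8.56 to 10.41 with the vehicle and from 7.53 to 9.31 with sorafenib, so its groups overlapped widely. The part of neutrophils in the lower values of Ccr1 and Cd14, which they also express, was not tested. Of 12 lymphocyte markers 0 passed (median -0.02), and their mean ran from 7.10 to 7.20 against 6.98 to 7.28. Of 7 erythroid markers 0 passed (median 0.02, mean from 8.56 to 9.14 against 8.76 to 9.17).

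Among 18 tested genes of inflammation and NF-kB signalling, Ccl2 and Ccl7 fell, 0 rose and 16 did not pass (median -0.18). The share of all tested genes that fell was 1.58%. Timp1, an inhibitor of matrix proteases, stood at 10.76, 9.33, 9.23 and 10.98 log2 in the vehicle rats and between 9.04 and 9.53 in the sorafenib rats. The same vehicle rats 1 and 4 were high as for Ccl2, and the difference of -0.82 ± 0.34 did not pass (adjusted p = 0.12). The interleukin gene Il1b differed by -0.53 ± 0.22 (adjusted p = 0.125). Of 19 interferon response genes 0 passed, with a median near 0, although Ifi44l, an interferon-induced gene outside that list, rose by 0.88 ± 0.29.

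**Figure D2:**
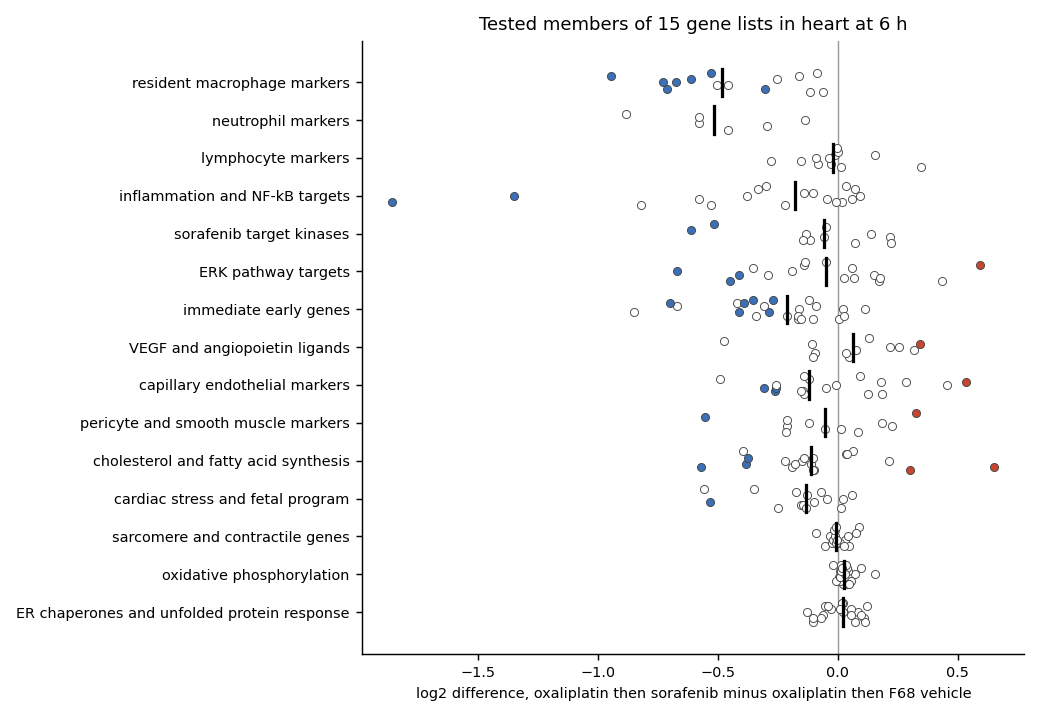
Difference in log2 expression between oxaliplatin then sorafenib and oxaliplatin then vehicle (x axis) for every tested member of 15 gene lists (rows), with rises past an adjusted p of 0.05 in red, falls in blue, the rest open and the median as a bar. Macrophage markers lie at or below -0.06, the 2 filled points of the inflammation list are Ccl2 and Ccl7, and the contractile, oxidative phosphorylation and chaperone lists lie between -0.13 and 0.15.

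Of 11 tested receptors and kinases that sorafenib binds 2 fell, 0 rose and 9 did not pass, against 1.58% of all genes that fell. Both that fell are VEGF receptors. Kdr, the main signalling receptor for VEGF-A on endothelium, stood at 9.84, 9.92, 9.79 and 9.74 log2 with the vehicle and at 9.31, 9.30, 9.38 and 9.23 with sorafenib. The spread within each group (SD 0.08 and 0.06) was far below the difference of -0.52 ± 0.13 (adjusted p = 0.00787). Flt1, the decoy receptor that binds VEGF-A tightly, measured 7.81, 7.95, 8.06 and 7.92 against 7.58, 7.07, 7.31 and 7.32 (-0.61 ± 0.14, adjusted p = 0.0031). Neither gene's groups overlapped, and both calls held in each of the 8 fits that left out 1 rat. For Flt1 the rats given D5W and the vehicle (7.25 to 7.94) spanned both groups, while for Kdr (9.79 to 10.13) they lay with the vehicle rats.

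The other members did not pass. Flt4, the lymphatic VEGF receptor, differed by -0.05 ± 0.07, Ret by -0.06 ± 0.08, the RAF kinase gene Araf by 0.07 ± 0.07 and Fgfr1 by -0.13 ± 0.07. The PDGF receptors gave 0.22 ± 0.11 for Pdgfra and -0.15 ± 0.09 for Pdgfrb. The angiopoietin receptor gene Tek (0.14 ± 0.06) and the collagen receptor gene Ddr2 (0.22 ± 0.08, adjusted p = 0.0753) were higher without passing. Csf1r, given with the macrophage genes, completes the list. Among 12 ligand genes for VEGF, angiopoietins and related vessel signals 1 rose, 0 fell and 11 did not pass, against 5.99% of all genes that rose. The vasoconstrictor peptide gene Edn1 rose from a mean of 6.00 to 6.34 (adjusted p = 0.032), close to the filter's level of 6, and passed in 4 of the 8 fits that left out 1 rat. Vegfa stood at 11.20 and 11.23, and Angpt2 differed by 0.32 ± 0.11 and Esm1, an endothelial target of VEGF, by -0.48 ± 0.27.

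Capillary endothelial markers moved in both directions, with 3 of 19 down, 1 up and 15 not passing (median -0.12). Over all tested genes 1.58% fell and 5.99% rose. The junction gene Esam differed by -0.26 ± 0.06 and did not overlap (10.76, 10.75, 10.78 and 10.92 against 10.50, 10.52, 10.62 and 10.50, adjusted p = 0.00684). The lipid carriers of heart capillaries, Fabp4 and Cd36, differed by -0.26 ± 0.07 and -0.31 ± 0.10. Cd36 passed in 2 of the 8 fits that left out 1 rat, and without sorafenib rat 2 only 1 of the 19 markers fell. The lectin gene Clec14a rose by 0.53 ± 0.15 (adjusted p = 0.019), and Cldn5, a tight junction gene, gave 0.45 ± 0.16 without passing (adjusted p = 0.0656). The retinol-binding protein gene Rbp7, an endothelial gene in heart that is on no list here, was among the largest falls: 8.75, 9.79, 9.14 and 9.67 against 8.53, 8.50, 8.72 and 8.32 (-0.82 ± 0.19, adjusted p = 0.00441). Of 11 pericyte and smooth muscle markers 1 fell and 1 rose. Mcam, an adhesion molecule of pericytes and endothelium, differed by -0.55 ± 0.11 (adjusted p = 0.001), and the smooth muscle myosin gene Myh11 rose by 0.33 ± 0.09.

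Of 17 ERK pathway targets 3 fell, 1 rose and 13 did not pass (median -0.05), against 1.58% of all genes that fell and 7.57% that changed. The feedback phosphatase gene Dusp6, which switches ERK off, was lower in every sorafenib rat than in any vehicle rat: 8.79, 8.83, 8.68 and 8.82 with the vehicle against 8.09, 8.39, 7.98 and 7.99 (-0.67 ± 0.16, adjusted p = 0.00746). Spry4, another feedback inhibitor, differed by -0.41 ± 0.12 with 1 sorafenib rat at 8.02 inside the vehicle range. The cyclin gene Ccnd1, which carries cells out of rest, stood at 10.09, 9.69, 9.80 and 9.79 against 9.11, 9.29, 9.53 and 9.63 (-0.45 ± 0.14, adjusted p = 0.0357). Phlda1 went the other way: 2 vehicle rats lay at 5.37 and 5.55, and all sorafenib rats between 6.51 and 6.57 (0.59 ± 0.18). Of these, Dusp6 passed in all 8 fits that left out 1 rat, Ccnd1 in 5, Phlda1 in 4 and Spry4 in 3.

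Immediate early genes, transcription factor and signalling genes that answer growth and stress signals within minutes, gave 6 falls, 0 rises and 17 not passing of 23 (median -0.21, with 19 of 23 below 0). The share of all tested genes that fell was 1.58%. Nr4a1, an orphan nuclear receptor gene, stood at 9.34, 9.75, 9.14 and 8.65 in the vehicle rats and at 8.38, 8.80, 8.52 and 8.37 in the sorafenib rats. Vehicle rat 4 fell inside the sorafenib range, and the difference was -0.70 ± 0.20 (adjusted p = 0.0223). Klf4, a factor of quiescent endothelium and of myeloid cells, differed by -0.41 ± 0.12 without overlap, Jund, an AP-1 subunit gene, by -0.35 ± 0.09 (adjusted p = 0.00622) and Nr4a2 by -0.27 ± 0.08. Junb and Ier2, named after their values were seen, differed by -0.39 ± 0.12 and -0.29 ± 0.09, and each passed in 3 of the 8 fits that left out 1 rat. Egr1, the usual reporter of ERK activity, was lower in every sorafenib rat (6.54 to 6.96 against 7.20 to 7.71) and did not pass (-0.67 ± 0.29, adjusted p = 0.134), and Fos stayed at 6.38 and 6.40. Leaving out 1 rat left 1 to 6 members past the threshold, the fewest without sorafenib rat 1. The mean over the 23 genes ran from 7.94 to 8.20 in the vehicle rats and from 7.63 to 7.85 in the sorafenib rats. In the rats given D5W and the vehicle it ran from 7.80 to 8.10, overlapping both groups.

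**Figure D3:**
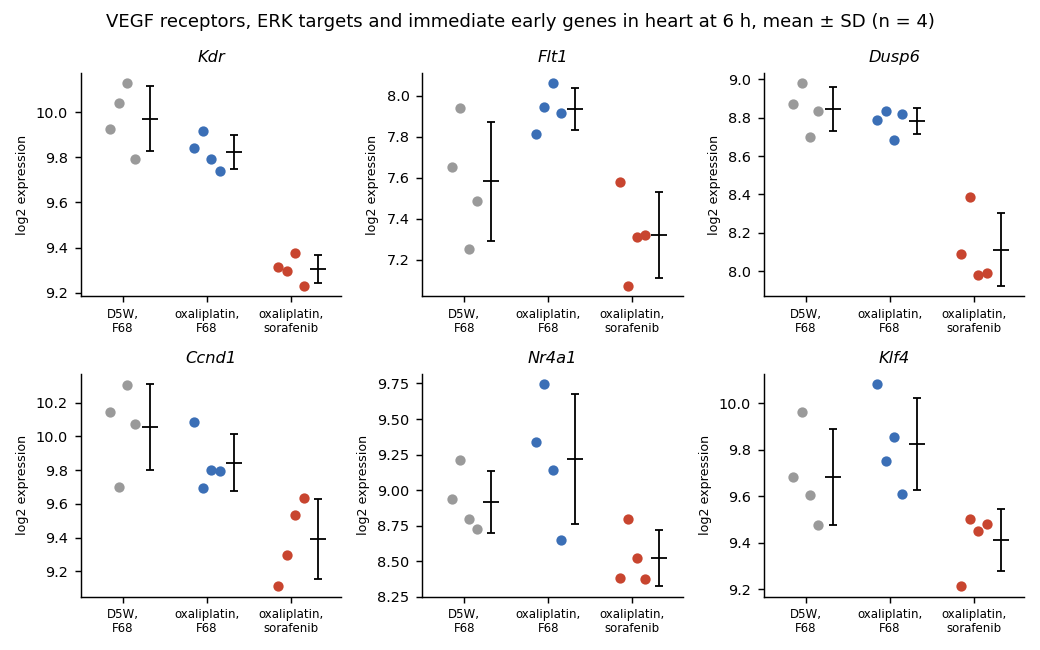
Log2 expression (y axis) of Kdr, Flt1, Dusp6, Ccnd1, Nr4a1 and Klf4 in heart at 6 h for single rats given D5W and vehicle (grey), oxaliplatin and vehicle (blue) or oxaliplatin and sorafenib (red), with the mean and SD of 4 rats. Kdr separates most tightly, with vehicle rats from 9.74 to 9.92 and sorafenib rats from 9.23 to 9.38, while vehicle rat 4 of Nr4a1 (8.65) lies inside the sorafenib range.

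Promoters of the named genes and of some lists were searched for several short elements. How common each element is among the genes that fell was not tested. The cyclic AMP response element TGACGTCA, searched on both strands, was found in 1.83% of 33469 rat promoter windows of RefSeq (build GRCr8, 250 bases before to 50 after a gene's start). It was present in the windows of Jund, Ier2 and Maff among 15 immediate early genes with a window, and of these Maff did not pass the test. It was also in the window of Plk2, a growth-factor-induced kinase gene and p53 target that differed by -0.47 ± 0.12 (adjusted p = 0.00857). The window of Flt1 holds it too, beginning 124 bases before the start. The CArG box, which binds serum response factor, was in 4 of the 15 immediate early windows (Egr1, Egr2, Klf6 and Zfp36) and in 1.64% of all windows, and none of these 4 genes passed the test. The 250 bases before the start are shown for Jund, Ier2 and Plk2, with the element in capitals. The window of Ccl7 is shown beside them, because it differed most among the falling genes with a window, with the AP-1 element TGANTCA in capitals, which 7.33% of all windows hold.
Jund, chr16:18769772-18770021, minus strand: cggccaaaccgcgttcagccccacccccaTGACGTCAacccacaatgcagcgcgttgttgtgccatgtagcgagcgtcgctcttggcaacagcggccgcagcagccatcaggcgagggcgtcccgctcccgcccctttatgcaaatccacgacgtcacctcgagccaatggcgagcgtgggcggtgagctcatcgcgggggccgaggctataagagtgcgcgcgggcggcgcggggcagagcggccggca
Ier2, chr19:40399123-40399372, plus strand: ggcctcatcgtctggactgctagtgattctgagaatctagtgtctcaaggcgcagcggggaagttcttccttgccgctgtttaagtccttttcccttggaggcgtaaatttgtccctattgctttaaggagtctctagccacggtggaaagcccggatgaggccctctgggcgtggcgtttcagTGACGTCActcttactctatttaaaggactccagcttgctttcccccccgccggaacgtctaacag
Plk2, chr2:43702286-43702535, plus strand: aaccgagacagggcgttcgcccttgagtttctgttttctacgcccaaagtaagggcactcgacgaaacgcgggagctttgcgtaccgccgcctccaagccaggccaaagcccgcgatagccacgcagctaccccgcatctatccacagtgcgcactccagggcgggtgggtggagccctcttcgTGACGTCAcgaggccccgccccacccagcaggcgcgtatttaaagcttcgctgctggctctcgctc
Ccl7, chr10:67513845-67514094, plus strand: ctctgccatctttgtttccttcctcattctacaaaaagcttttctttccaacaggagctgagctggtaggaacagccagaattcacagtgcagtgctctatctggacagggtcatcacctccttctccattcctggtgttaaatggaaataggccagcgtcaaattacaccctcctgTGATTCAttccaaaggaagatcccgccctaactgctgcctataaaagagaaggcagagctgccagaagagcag

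In Ier2 and Plk2 the element begins 66 bases before the start, in Jund 221 bases before it, and in Ccl7 the AP-1 element begins 73 bases before it. The sequence TCACNCCAC, a form of the sterol regulatory element, was in 1.12% of all windows and in 0 of 14 windows of cholesterol and fatty acid synthesis genes. A match is only a match of letters, and binding was not measured.

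The few genes of sterol and fatty acid synthesis that passed went in both directions. Of 19 tested 3 fell, 2 rose and 14 did not pass (median -0.11), against 1.58% of all genes that fell and 5.99% that rose. The falls were on the cholesterol side: Srebf2, the transcription factor gene that drives it, stood at 9.46, 9.10, 9.24 and 9.15 with the vehicle against 8.67, 8.99, 9.07 and 8.72 with sorafenib (-0.38 ± 0.07, adjusted p = 0.000805), without overlap. The isoprene enzyme gene Idi1 differed by -0.57 ± 0.15 (adjusted p = 0.0122) and Sqle, which makes squalene epoxide, by -0.39 ± 0.13 (adjusted p = 0.0438), named after its value was seen. The rises were on the fatty acid side, Scd2, a desaturase gene, by 0.65 ± 0.16 and Acaca, which makes malonyl-CoA, by 0.30 ± 0.07 (both adjusted p = 0.00778). Sqle passed in 2 of the 8 fits that left out 1 rat and Srebf2 in all 8. Over these fits 1 to 4 members fell and 0 to 3 rose. The mean over the 19 genes ran from 7.89 to 8.00 in the vehicle rats and from 7.81 to 7.88 in the sorafenib rats. In the rats given D5W and the vehicle it ran from 7.82 to 7.92, overlapping both groups.

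The 12 genes that rose most were Bcl6, Mylip, Siglec5, Id2, Ifi44l, Abcg1, Tnfsf10, Ccl6, Scd2, Gimap7, Pxdn and Rnf144a. The firmest were the ubiquitin ligase gene Mylip and Pxdn, a peroxidase gene whose product cross-links collagen IV of basement membranes. Mylip stood at 8.20, 8.50, 8.46 and 8.81 log2 with the vehicle and at 9.66, 9.20, 9.46 and 9.53 with sorafenib (0.97 ± 0.13, adjusted p = 1.9e-06). Pxdn stood at 10.88, 10.92, 11.13 and 11.23 against 11.69, 11.60, 11.69 and 11.71 (0.63 ± 0.09, adjusted p = 4.5e-06). Both genes lay above every vehicle rat in each sorafenib rat, also above the rats given D5W and the vehicle (at most 8.54 and 11.43). Rnf144a, another ubiquitin ligase gene, rose by 0.63 ± 0.13 (adjusted p = 0.00152). Abcg1 read 7.68, 8.16, 8.35 and 8.25 against 9.19, 8.91, 8.96 and 8.75 (0.84 ± 0.19, adjusted p = 0.00354).

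Tnfsf10, the gene of the death ligand TRAIL, was nearly constant in the sorafenib rats (8.53 to 8.63) and lower and more spread with the vehicle (7.48 to 8.20), a difference of 0.72 ± 0.19. The myeloid chemokine gene Ccl6 rose from 9.48, 9.60, 9.42 and 9.85 to 10.01, 10.32, 10.16 and 10.53 (0.67 ± 0.17, adjusted p = 0.00971). Gimap7, a GTPase gene of lymphocytes and endothelium, rose by 0.64 ± 0.16. The remaining large rises were uncertain. Bcl6, a transcriptional repressor gene, had vehicle rats at 8.85, 8.76, 9.64 and 9.95 and sorafenib rats at 10.23, 10.60, 9.64 and 10.74, with overlap (1.00 ± 0.28, adjusted p = 0.0175). Id2, which blocks helix-loop-helix factors, overlapped too and had 1 vehicle rat at 7.43 (adjusted p = 0.0483). Siglec5 lay below 6 log2, the level the filter asks for, in all vehicle rats and in 2 sorafenib rats. Bcl6 passed in 4 of the 8 fits that left out 1 rat, Id2 and Siglec5 in 3 and Ifi44l in 1.

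The gene with the lowest p was Nherf2, a scaffold protein gene of membrane transporters and receptors, named after its value was seen. It stood at 9.59, 9.30, 9.59 and 9.45 in the vehicle rats and at 8.77, 8.79, 8.80 and 8.79 in the sorafenib rats, a difference of -0.69 ± 0.08 (adjusted p = 1.73e-08). The SD was 0.01 among the sorafenib rats and 0.14 among the vehicle rats. RT1-DMa, which loads peptides onto MHC class II, read 8.41, 8.16, 8.23 and 8.97 against 7.44, 7.55, 7.60 and 7.83 (-0.84 ± 0.17, adjusted p = 0.000996). Asgr2, a galactose-binding lectin gene, read 7.12, 7.28, 7.27 and 7.67 against 6.59, 6.30, 6.48 and 6.69 (-0.82 ± 0.17, adjusted p = 0.00122), and Fxyd2, a regulator of the sodium pump, 6.79, 6.51, 6.71 and 7.73 against 5.97, 6.20, 6.27 and 6.15 (-0.79 ± 0.17, adjusted p = 0.00303).

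Few genes of heart muscle and matrix passed the threshold. Of 18 sarcomere and contractile genes, 22 of oxidative phosphorylation, 20 of glycolysis, 20 of calcium handling and ion channels and 22 of fibroblasts and matrix 0 passed. Differences lay between -0.09 and 0.09 for the sarcomere genes and between -0.30 and 0.26 for calcium handling and ion channels. For fibroblast and matrix genes they lay between -0.84 and 0.22. Of 15 cardiac stress and fetal genes 1 fell: Ankrd2, a stretch-responsive muscle protein gene (-0.53 ± 0.15, adjusted p = 0.0162), with vehicle rats at 7.08, 6.72, 6.68 and 7.65 and sorafenib rats between 6.34 and 6.67. The natriuretic peptide gene Nppa stood at 11.54 ± 0.59 and 11.45 ± 0.62 (SD). Of 7 atrial markers 2 rose, Nr2f2 (0.43 ± 0.12) and Dkk3 (0.29 ± 0.09), while Nppa did not pass. Over all tested genes 5.99% rose. The share of atrial tissue in each piece was not tested.

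Stress programmes gave few calls. Of 20 ER chaperone, 15 heat shock, 14 Nrf2, 18 glucocorticoid and 30 ribosome biogenesis genes 0 passed. Among 21 Atf4 targets the lipoprotein receptor gene Vldlr rose (0.21 ± 0.06) and the arginine transporter gene Slc7a1 fell (-0.29 ± 0.09). Of 16 p53 targets only Plk2 passed. Single members passed among clock genes (Per3, 0.38 ± 0.11, of 18), hypoxia targets (Kdm3a, 0.25 ± 0.07, of 19), FoxO targets (Bcl6, of 18) and proliferation genes (Tyms, -0.37 ± 0.11, of 23), each share below the 7.57% of all genes.

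More macrophage markers fell at 24 h than at 6 h. The same comparison of sorafenib with its vehicle after oxaliplatin changed 243 genes at 1 h (2.15%), of which 79 rose, and 195 at 24 h (1.72%), of which 24 rose, each with 4 rats against 4. All 8 tested liver markers were higher with sorafenib in heart at 1 h (0.43 to 2.48 log2, median 0.55), and 0 passed. The cause was not tested, and those arrays enter the differences between 6 and 1 h as well. At 1 h 0 of the 14 macrophage markers passed, with a median of 0.20 log2. At 24 h 13 of 14 fell, with a median of -1.24, and Cx3cr1 alone did not (0.03). C1qb differed by 0.11, -0.73 and -1.70 at 1, 6 and 24 h, Mrc1 by 0.12, -0.95 and -1.42 and Csf1r by 0.24, -0.12 and -1.06. The difference between the effects at 6 and 24 h passed for C1qb (adjusted p = 0.016), Aif1 (0.0338), Stab1 (0.0256), C1qa (0.0133), Csf1r (0.00318) and Adgre1 (0.0317), and that between 6 and 1 h for Stab1 (0.0241). Cx3cr1 went the other way, with the lower value at 6 h (-0.33 against 24 h, adjusted p = 0.0438).

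Effects at 6 and 1 h differed in 87 genes (0.769%) and effects at 6 and 24 h in 570 (5.04%), a count that was 40 without vehicle rat 2 of 24 h and 17 without vehicle rat 1 of 6 h. Ptpro moved from 0.38 at 1 h to -1.13 at 6 h and -0.92 at 24 h, and the step from 1 to 6 h passed (adjusted p = 0.000256). RT1-DMa (adjusted p = 0.00424) and Fxyd2 (adjusted p = 0.0307) took the same step downwards. Of the 12 largest falls at 6 h 9 also passed at 24 h and 0 at 1 h. Of the 12 largest rises 0 passed at 1 h and 2 at 24 h, where Mylip was still up (0.47, adjusted p = 0.0453) and Ccl6 was down (-1.08, adjusted p = 6.57e-06). The turn of Ccl6 between 6 and 24 h passed (adjusted p = 2.55e-06). Pxdn differed by 0.07, 0.63 and -0.03 at the 3 times, and its 6 h effect differed from both others (adjusted p = 0.0218 and 0.00341).

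Kdr gave -0.16, -0.52 and -0.70 and passed at 6 and 24 h, Dusp6 gave -0.61, -0.67 and -0.54 and passed at 1 and 6 h, and Flt1 gave -0.32, -0.61 and -0.08 and passed at 6 h. For these 3 genes the difference of the 6 h effect from the other times did not pass (adjusted p from 0.0774 to 0.936). Ccl2 gave -1.06 at 1 h, -1.86 at 6 h and -0.04 at 24 h, and passed at 6 h alone.

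**Figure D4:**
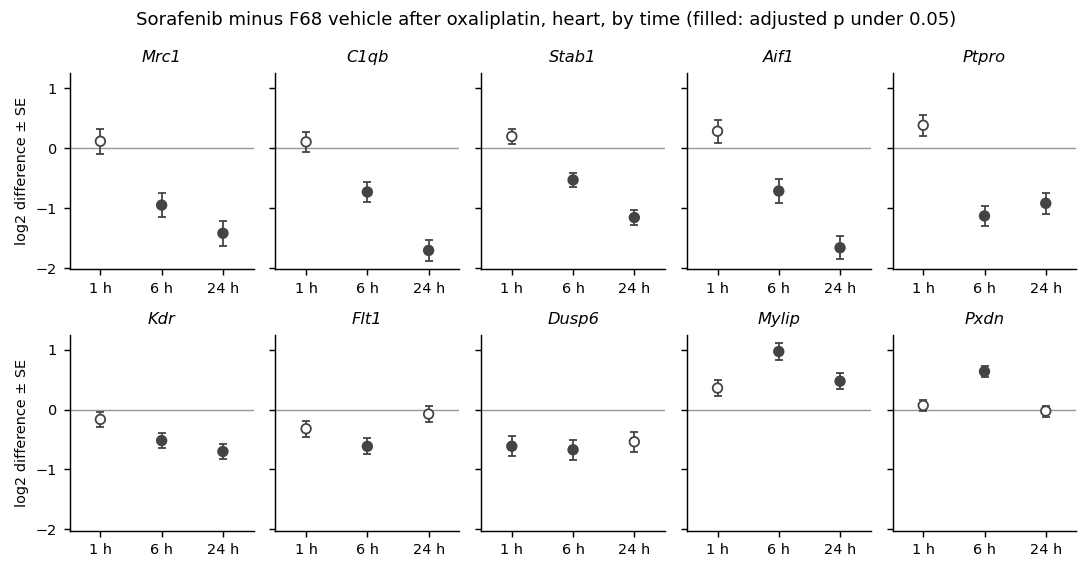
Difference in log2 expression (y axis, ± SE) between sorafenib and its vehicle after oxaliplatin in heart at 1, 6 and 24 h for 10 genes, with 4 rats against 4 at each time and filled points for an adjusted p under 0.05. The macrophage genes of the upper row are at or above 0.11 at 1 h and below 0 at 6 and 24 h, while Pxdn is away from 0 at 6 h alone.

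Sunitinib, a further inhibitor of VEGF and PDGF receptors that does not aim at RAF, was tested at 5 mg/kg against its own vehicle, water, after the same oxaliplatin dose. The dose, the vehicle and the day of dosing differ from those of the sorafenib groups, so the drug cannot be told apart from them. Sunitinib after oxaliplatin changed 1 gene at 6 h by limma (893 at an unadjusted p under 0.05). The effects of the drugs differed in 104 genes (0.919%), a count of 6 without sorafenib's vehicle rat 1 and of 320 without its vehicle rat 4. Kdr gave -0.45 ± 0.13 with sunitinib and -0.52 with sorafenib, a difference of -0.06 ± 0.18 (adjusted p = 0.878). Ccnd1 likewise gave -0.51 and -0.45, and Mcam -0.37 and -0.55. For Flt1 the values were -0.05 and -0.61, and the difference did not pass (adjusted p = 0.106).

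Of the 12 largest falls, all 12 were below 0 with sunitinib too, from -0.37 to -0.02, and 0 passed. The difference between the drugs passed for Ccr1 (-1.22, adjusted p = 0.0492) and Ptpro (-0.89, adjusted p = 0.0494). Among the 12 largest rises it passed for Mylip (1.13, adjusted p = 0.000752), Pxdn (0.66, adjusted p = 0.00624) and Ccl6 (0.89, adjusted p = 0.0492), genes whose sunitinib effects were -0.17, -0.02 and -0.22. It passed as well for Nherf2 (adjusted p = 0.0277), Cx3cr1 (0.0462), Kdm3a (0.0208) and Angpt2 (0.0492).

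**Figure D5:**
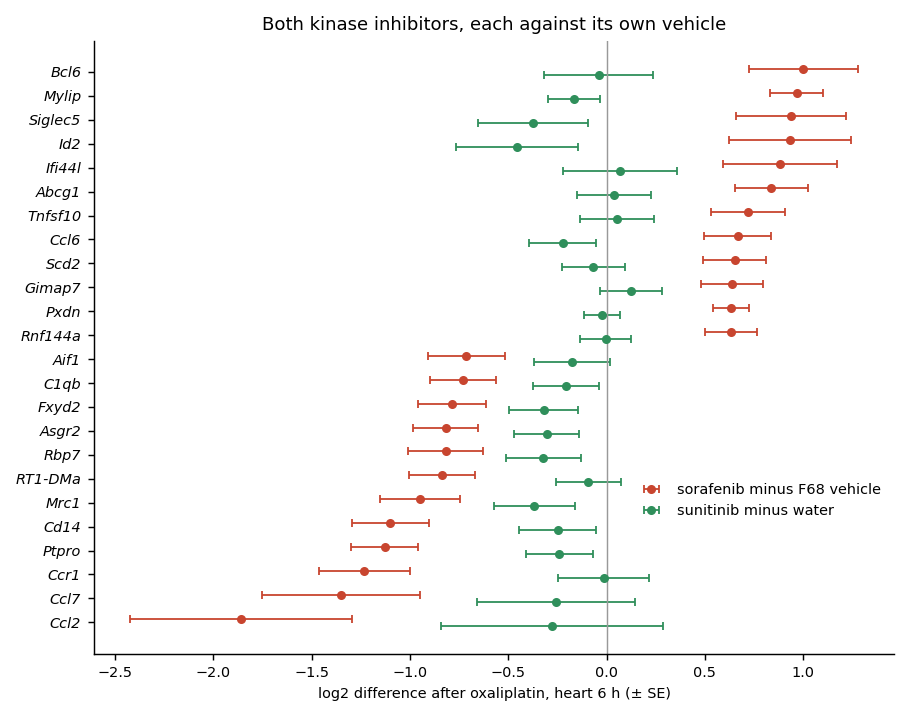
Difference in log2 expression (x axis, ± SE) after oxaliplatin in heart at 6 h for the 12 genes that rose and the 12 that fell most (rows), for sorafenib against its vehicle (red) and sunitinib against water (green), with 4 rats against 4 for each. The genes were chosen by the red values, and the green ones lie between -0.46 and 0.12.

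The kidney and liver of the same rats gave few calls, 67 genes in kidney (0.544%) and 24 in liver (0.207%). Of the 14 macrophage markers 0 of 13 tested passed in kidney (median -0.26) and 0 of 14 in liver (median -0.16). Among the 24 genes that moved most in heart, Ccl6 (1.27, adjusted p = 5.63e-05) and Abcg1 (0.88, adjusted p = 0.0394) rose in kidney, RT1-DMa fell there (-0.74, adjusted p = 0.0148), and Scd2 rose in liver (0.85, adjusted p = 0.0237). Esam, among the endothelial genes, fell in liver (-0.35, adjusted p = 0.0326). Kdr gave -0.22 in kidney and -0.20 in liver without passing, while Esm1 rose in kidney (1.09, adjusted p = 0.0158) and Angpt2 in liver (0.92, adjusted p = 0.00246). Whether the effects differ between tissues was not tested.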

How the data were processed

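RNA from heart, kidney and liver of 96 rats was hybridized to Affymetrix rat whole-genome arrays. The authors deposited RMA log2 values, in which background correction, quantile normalization and probe summary are already done, and the RMA version is not given in the sources used here. Of 31099 probe sets 20832 had 1 gene symbol in the platform annotation and 436 had several, which were not used. Each of 14218 genes was read by its brightest probe set (by mean over the arrays of a tissue) and tested where log2 exceeded 6 on at least 4 arrays of the tissue (11317 genes in heart). limma 3.58.1 in R 4.3.3 fitted a mean for each of 24 groups per tissue, with Benjamini-Hochberg adjustment over all tested genes, and was tested on simulated data. Two-sided exact permutation tests over 4 against 4 rats served for single values. In other tissues 2 arrays whose tissue markers contradicted their labels were left out. RMA keeps no depth, so the number of arrays limits the precision. Members and gene lists were chosen with earlier results of these data known. Named genes are the 12 largest rises and falls among called genes, up to 4 members with the lowest p of each list and all listed sorafenib target kinases. Sqle, Ier2, Junb, Maff, Egr2, Klf6, Zfp36, Lyve1, C1qc, C1qa, Nherf2, Egr1, Fos, Vegfa, Adgre1, Cd163, Nppa, Cldn5 and the liver X receptor targets were named after their values were seen. Promoter windows came from RefSeq (GRCr8), and 64 of 85 named genes had one. Alternatives in array weights, centring, normalization, filter, probe sets, variance model, covariate and arrays are given in the closing section. Figures were drawn with matplotlib 3.10.9.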

Additional observations from a re-analysis of the deposited data

Results flagged for a closer look

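In 3 of 170 sets of 4 values, each a named gene in 1 group of rats, a single rat stood apart from the others. Chance alone picks out about 1 in 20 independent sets. These sets share the same 8 rats and are not independent. Vehicle rat 4 was the highest for C1qb (10.36 log2) and for Lyve1 (9.87), and sorafenib rat 3 for Cldn5 (10.36).

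The effect of sorafenib at 6 h differed from that at 24 h, in log2 and with an adjusted p under 0.05 by limma, for Ccl6 (1.75), C1qa (1.04), C1qb (0.97), Aif1 (0.95), Csf1r (0.94), Adgre1 (0.92), Pxdn (0.66), Rnf144a (0.64), Stab1 (0.63), Kdm3a (0.38) and Acaca (0.33), with the 6 h effect the higher, and for Slc7a1 (-0.43) and Cx3cr1 (-0.33), with the 6 h effect the lower. For the macrophage genes among them, save Cx3cr1, the higher value means a smaller fall at 6 h. The effect at 6 h differed from that at 1 h for Ptpro (-1.51), RT1-DMa (-1.23), Fxyd2 (-0.9999), Stab1 (-0.73), Nherf2 (-0.52), Srebf2 (-0.48), Vldlr (0.43) and Pxdn (0.57).

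The effect of sorafenib differed from that of sunitinib for Ccr1 (-1.22), Ptpro (-0.89), Nherf2 (-0.47), Cx3cr1 (-0.39), Kdm3a (0.43), Angpt2 (0.59), Pxdn (0.66), Ccl6 (0.89) and Mylip (1.13). Drug, dose, vehicle and day of dosing cannot be told apart there.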

How the results depend on the processing

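No paired analysis was possible because the labels give no replicate numbers that pair the rats. Over 85 named genes 1349 of 1603 alternative values kept direction and side of the threshold, 246 lost the call, 8 gained it and 0 reversed. Of 62 called genes 20 passed in every fit without 1 rat, 25 passed without vehicle rat 1, 38 with array weights and 9 with the 8 arrays alone. Leaving out 1 rat gave 135 to 972 genes at 6 h (857 in the report), 10 to 239 at 1 h (243), 94 to 252 at 24 h (195), 6 to 197 for 6 against 1 h (87), 17 to 970 for 6 against 24 h (570), 6 to 320 for sorafenib against sunitinib (104), 11 to 82 in kidney (67) and 5 to 54 in liver (24). In that order, array weights gave 334, 539, 216, 11, 168, 34, 341 and 171, and the arrays of the contrast alone 22, 0, 86, 4, 13, 1, 0 and 0. The beta-actin covariate gave 141 at 1 h, 43 for 6 against 1 h, 21 in kidney and 15 in liver. Every probe set gave 917 at 1 h. The mean of probe sets gave 389 at 1 h, 334 for 6 against 24 h and 45 for sorafenib against sunitinib. No filter gave 221 for 6 against 1 h. Centring gave 200 for 6 against 24 h (68 up, 132 down), 34 between drugs (9 up, 25 down) and 12 in liver (8 up, 4 down), and split 578 genes at 6 h into 216 up and 362 down, 152 at 24 h into 32 and 120, 78 for 6 against 1 h into 19 and 59 and 67 in kidney into 42 and 25. Another quantile normalization gave 47 for 6 against 1 h (16 up, 31 down), 62 for 6 against 24 h, 20 between drugs, 127 in kidney and 8 in liver (5 up, 3 down), and split 593 genes at 6 h into 361 and 232 and 314 at 1 h into 144 and 170. Fewer arrays give the spread in the fits with the contrast alone, and at 6 h they include the vehicle group, whose arrays lay furthest apart. The cause of the changes was not tested.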

Other observations

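A list of liver X receptor targets, genes of cholesterol export and fatty acid synthesis switched on by oxysterols, was drawn up after Mylip, Abcg1 and Scd2 had been seen to rise, so its count supports nothing about its direction. Of 13 tested members 4 rose, 0 fell and 9 did not pass, with a median of 0.28 log2 against 0.04 over all genes. Over all tested genes 5.99% rose. Beside the 3 genes already described, Pltp, which transfers phospholipids between lipoproteins, rose by 0.39 ± 0.10 (adjusted p = 0.0107, limma). The cholesterol exporter gene Abca1 gave 0.47 ± 0.36, the lipoprotein gene Apoe 0.28 ± 0.14, the fatty acid regulator gene Srebf1 0.21 ± 0.08 (adjusted p = 0.0889) and the fatty acid synthase gene Fasn 0.03 ± 0.07. Leaving out 1 rat left 1 to 5 members past the threshold.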
